A study of Mus musculus with 12 samples.

Results

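The NRF2 antioxidant and ferritin genes described here are 10 genes of mouse bone marrow-derived mast cells (BMMCs), which are mast cells grown in culture from bone marrow. They are *Srxn1*, *Hmox1*, *Txnrd1*, *Gclm*, *Gclc*, *Nqo1*, *Slc7a11*, *Sqstm1*, *Ftl1* and *Fth1*, taken by symbol from a table of read counts that lists 16234 genes. All 10 were present, and all 10 were among the 12208 genes that passed a filter on low counts and were tested. The list was drawn up by pathway and was chosen by someone who knew earlier results of these same libraries. Which values weighed in that choice is not recorded. The change with antigen within a label is therefore given below as a description, without p-values, and the counts of genes passing in that contrast serve only as a summary. P-values for differences between genotypes, in level or in response, set a difference against the spread of replicates and are not independent support for it. That holds for the differences in response too, since they use the same libraries.

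NRF2, encoded by *Nfe2l2*, is a transcription factor that the adaptor KEAP1 holds in the cytoplasm and delivers for degradation. Oxidants and electrophiles modify KEAP1, after which NRF2 enters the nucleus, pairs with a small MAF protein and binds antioxidant response elements near genes for glutathione synthesis, thioredoxin recycling, quinone and haem breakdown and iron storage. Several of these genes also answer to AP-1, BACH1 or ATF4. Ferritin, a shell of light and heavy chains encoded by *Ftl1* and *Fth1*, stores iron and is also controlled at translation by iron regulatory proteins. In mast cells, crosslinking of FcϵRI, the high-affinity IgE receptor, is known to produce reactive oxygen species.

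RNA was sequenced in 12 libraries that form 6 groups of 2 replicates. By label, the *Elk4* genotype of the cells was wild type (WT), heterozygous (HZ) or homozygous for the knockout (KO). The knockout is a conventional one, not limited to a cell type, and *Elk4* encodes a ternary complex factor of the Ets family. The mice were 6 to 12 weeks old, were of both sexes and had a C57BL/6N background, and WT animals were littermates. Marrow was cultured in IL-3 and SCF for 4 to 8 weeks. Stimulated cells of each label were sensitized overnight with IgE against DNP, at 0.5 µg/ml, before DNP-HSA antigen was added at 100 ng/ml for 1 h. The unstimulated cells were labelled untreated, and whether they had been given IgE is not stated. The labels do not say whether the replicates came from separate animals or cultures, so the p-values measure only the spread between these libraries, which may be technical.

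Counts on genes totalled 29697958 to 35531667 per library, and the biological coefficient of variation between replicates was 4.01%. Over all libraries *Elk4* had between 1867 and 3238 counts, with 2613 and 2253 in the unstimulated libraries labelled KO against 2426 and 2740 in those labelled WT. Reads summed along the gene do not reveal whether part of it was deleted, so the groups go by their labels. Of 14 mast cell markers, 13 were in the table, and their summed level was 51093 to 62685 CPM, the read counts per library size after scaling by the trimmed mean of M values (TMM). Of 12 macrophage and monocyte markers, 6 stayed below 1 CPM in every library, namely *Csf1r*, *C1qa*, *C1qb*, *Mrc1*, *Marco* and *Ly6c2*. The 6 neutrophil markers in the table summed to at most 0.269 CPM and the 2 B and T cell markers to at most 0.0695 CPM, while the 6 erythroid markers reached at most 2.76 CPM. The 3 basophil markers summed to 465 to 674 CPM, nearly all from *Cd200r3*, and the 3 megakaryocyte markers to 1511 to 2421 CPM, nearly all from *Itga2b*, the integrin alpha IIb chain. Both sums stood highest in unstimulated HZ, where *Itga2b* averaged 2417 CPM against 1717 in unstimulated WT and 1523 in stimulated HZ and *Cd200r3* 666 against 593 and 457. *Pf4*, *Gp9* and *Prss34* stayed at or below 1.61 CPM. The remaining basophil marker, *Mcpt8*, ranged from 4.68 to 11.05 CPM over all libraries and did not peak in unstimulated HZ. Its mean was 10.9 CPM for stimulated HZ and 10.4 for stimulated KO, against 5.13 to 8.11 CPM for the other groups. The part of these transcripts in the HZ and KO values below was not tested. In bulk RNA of this kind, fewer cells that express a gene and less of its RNA per cell cannot be told apart.

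*Srxn1* (NCBI Gene 76650), which encodes the sulfiredoxin that repairs over-oxidized peroxiredoxins, gave the strongest response of the 10 genes, and its promoter is shown first because it alone among the members with a promoter window carried AP-1 letters. RefSeq promoter windows of 300 bases, with 250 before and 50 after the transcription start, were given for 8 of the 10 genes. Motifs were searched on both strands. TGACNNNGC is the core of the antioxidant response element and TGANTCA is the AP-1 site. The windows follow build GRCm38.p6, whereas the counts were made on GRCm39, and no position was carried between the builds. The 120 bases before the *Srxn1* start, at chr2:152105404-152105523 on the plus strand, hold TGANTCA at 102 and at 45 bases before the start, shown in capitals.
*Srxn1* promoter: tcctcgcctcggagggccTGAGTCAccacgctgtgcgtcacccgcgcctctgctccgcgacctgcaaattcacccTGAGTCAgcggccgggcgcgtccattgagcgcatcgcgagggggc
The antioxidant response element letters lay before the start of 2 members, on the opposite strand, and these sites are shown in capitals for comparison. The *Gclm* site is at chr3:122245413-122245441, and its match begins 134 bases before the start. The *Txnrd1* site is at chr10:82859104-82859132 in 1 of the 3 windows of that gene, 92 bases before that start.
*Gclm* site: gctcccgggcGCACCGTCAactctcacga
*Txnrd1* site: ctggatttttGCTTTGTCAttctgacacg
*Srxn1* held the same core 28 bases after its start, so 3 of the 8 genes with a window carried it, in 3 of their 11 windows. None of these matches overlapped a match of the other motif by the letters searched. The AP-1 letters 45 bases before the *Srxn1* start continue as TGAGTCAGC, which differs from TGACNNNGC only in a G for the C. That variant was not searched. Of 32851 promoter windows in all, 12.39% held TGACNNNGC and 7.81% held TGANTCA. Counted by gene over the 9821 tested genes with a window, 17.24% carried TGACNNNGC and 6.08% carried TGANTCA in at least 1 window. A match describes letters in a window, and elements farther away were not searched.

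Per length of transcript, the 10 genes lay far apart in level. By the deposited FPKM values, which are scaled by gene length and library total, *Ftl1* ranked between place 1 and place 4 of the 16234 genes in every library and *Fth1* between 6 and 15. *Sqstm1* ranked between 134 and 177. *Slc7a11*, which encodes the cystine carrier of the cystine-glutamate exchanger, ranked between 8818 and 10515, at 0.494 ± 0.020 FPKM (SD, n = 2) in unstimulated WT. *Srxn1* went from place 685 at its lowest to place 43 at its highest, and *Hmox1* from 706 to 136. The 10 genes together took 1.39% to 1.64% of the counts of an unstimulated library and 2.06% to 2.25% of a stimulated one.

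**Figure D1:**
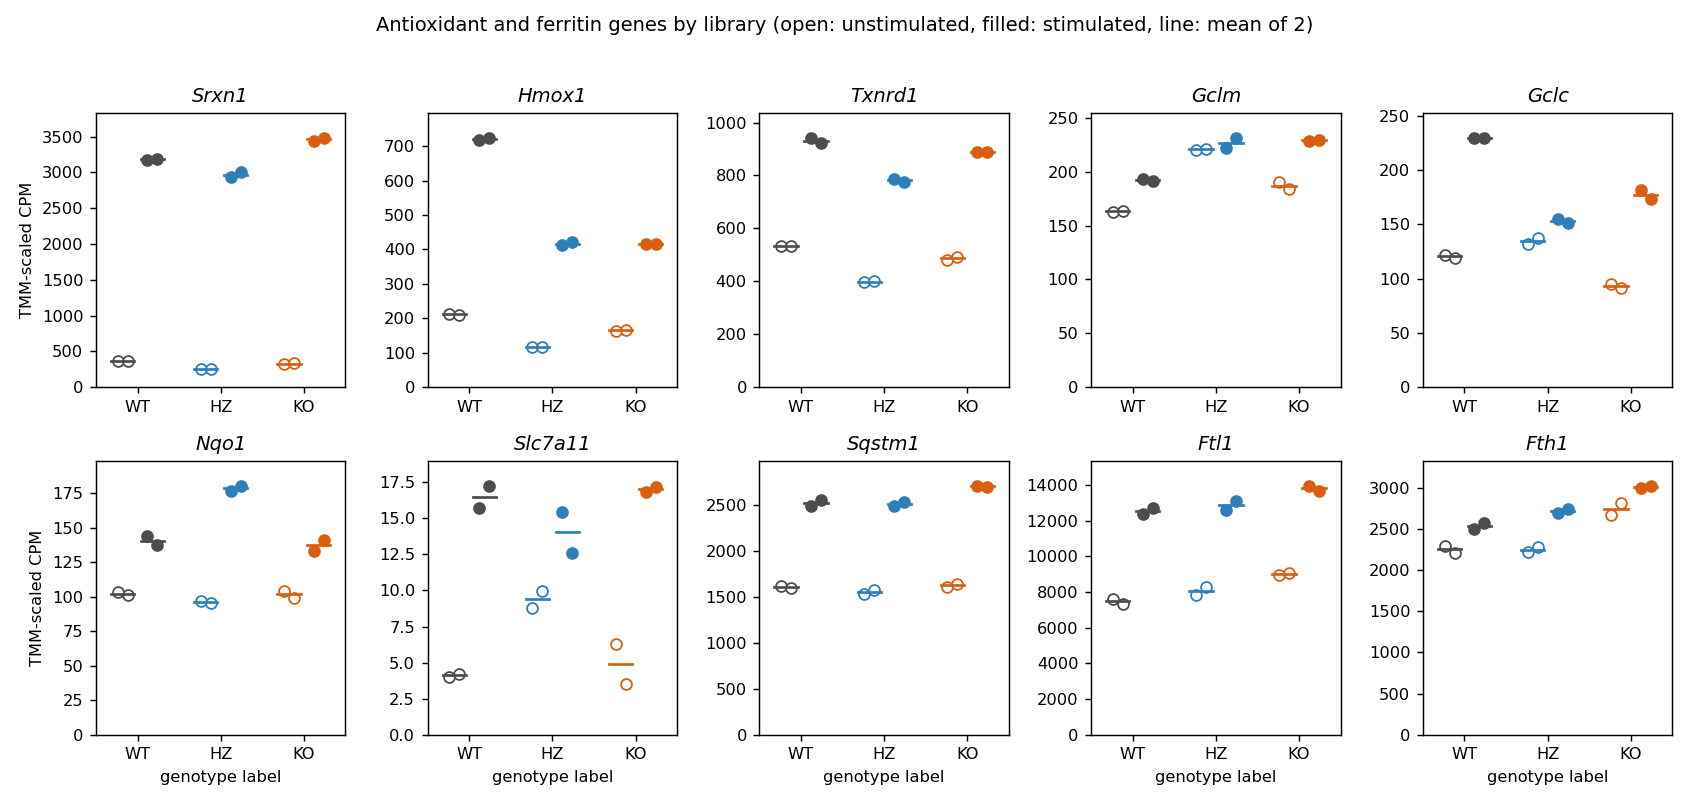
Level of each of the 10 genes in all 12 libraries, in TMM-scaled CPM (linear axes from 0), by genotype label, with open circles for unstimulated libraries, filled circles for stimulated ones and lines for the mean of 2. *Srxn1* sits between 261 and 367 CPM without antigen and between 2933 and 3479 CPM with it, while *Gclm* and *Fth1* move little. Scaled by library totals, their log2 fold changes in WT would lie below 0, that of *Gclm* without passing.

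The question of the first comparison was which of these genes differ after 1 h of antigen within each label. Of the 10 genes, 10 were higher in stimulated WT, 9 in stimulated HZ and 10 in stimulated KO by the quasi-likelihood test of edgeR (threshold of 0.05 on the adjusted p), and none was lower. Over the genes tested as a whole, 22.4% rose and 22.9% fell in WT, 32.9% and 31.6% in HZ, with 20.4% and 20.5% in KO. At least a 2-fold increase was seen for 3 members in WT, 2 in HZ and 3 in KO, against 3.71%, 7.02% and 3.73% of all genes. The median log2 fold change of the members was 0.78 in WT, 0.68 in HZ and 0.80 in KO, against medians of -0.013, -0.0048 and -0.0068 over all genes tested. Since the members may have been picked on this response, nothing is read from these counts.

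These directions depend in part on the scaling. Stimulated libraries had TMM factors of 0.902 to 0.924 and unstimulated ones of 1.08 to 1.12, and scaling by library totals instead moved the median of all genes to -0.32 in WT, -0.24 in HZ and -0.30 in KO. On library totals 8 members were higher in WT, 7 in HZ and 8 in KO, with 1 lower in each. Over all genes tested, 6.90% were higher and 60.6% lower in WT on that scaling. These shares were 20.04% and 48.3% in HZ, with 7.03% and 59.8% in KO. *Srxn1*, *Hmox1*, *Txnrd1*, *Nqo1*, *Slc7a11*, *Sqstm1* and *Ftl1* rose under both scalings in all labels by edgeR. *Gclm* turned to -0.070 in WT and -0.19 in HZ, *Fth1* to -0.14 in WT and -0.16 in KO, and *Gclc* to -0.049 in HZ. Of these, the values of *Gclm* in WT and *Gclc* in HZ did not pass.

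Among the thioredoxin and haem genes, *Srxn1* responded most. It read 367 and 366 CPM in unstimulated WT, 262 and 261 in HZ, with 320.2 and 334 in KO. After antigen *Srxn1* read 3174 and 3191 CPM in WT, 2933 and 3002 in HZ, with 3445 and 3479 in KO. No stimulated library came near an unstimulated one, and the fold change was 8.68 in WT, 11.4 in HZ and 10.6 in KO. On the log2 scale these were 3.12 ± 0.025 (standard error), 3.51 ± 0.025 and 3.40 ± 0.025. In WT, *Srxn1* stood at place 75 from the top by log2 fold change among the 9858 genes that averaged 100 counts or more per library.

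*Hmox1* (NCBI Gene 15368) encodes the inducible haem oxygenase, which splits haem into biliverdin, iron and carbon monoxide. It read 213 and 211 CPM in unstimulated WT, 116 and 118 in HZ, with 165 and 166 in KO. With antigen it read 717 and 723 CPM in WT, 413 and 421 in HZ, with 416 and 416 in KO. The stimulated WT libraries thus stood well above those of the other labels, which overlapped each other. The response was 3.40-fold in WT, 3.56-fold in HZ and 2.52-fold in KO.

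*Txnrd1* (NCBI Gene 50493), the cytosolic thioredoxin reductase, reduces thioredoxin with NADPH. It read 534 and 534 CPM in unstimulated WT, 397 and 401 in HZ, with 482 and 491 in KO, and after antigen 941 and 922, 788 and 775, and 889 and 889 CPM in the same order. It rose by 1.74-fold in WT, 1.96-fold in HZ and 1.83-fold in KO, less than 2-fold in every label. Within one library, reads of *Srxn1* went from 0.687 ± 0.0021 (SD, n = 2) per read of *Txnrd1* to 3.42 ± 0.062 in WT, and this ratio needs no scaling.

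The genes of glutathione synthesis did not move together. GCLC is the catalytic and GCLM the modifier subunit of glutamate-cysteine ligase, the rate-limiting enzyme of glutathione synthesis. *Gclc* (NCBI Gene 14629) read 122 and 119 CPM in unstimulated WT and 229 and 229 in stimulated WT, and 94.9 and 91.5 against 181 and 173 in KO. In HZ it read 132 and 137 CPM without antigen and only 155 and 151 with it. The response of *Gclc* was 1.90-fold in WT and 1.90-fold in KO but 1.14-fold in HZ, where it was below zero on library totals. *Gclm* (NCBI Gene 14630) read 163 and 164 CPM in unstimulated WT, 220.2 and 221 in HZ, with 190.3 and 184 in KO. Stimulated *Gclm* stood at 193 and 191 CPM in WT, 222 and 231 in HZ, with 229 and 229 in KO. Its log2 fold change of 0.24 ± 0.036 in WT was -0.070 on library totals. That of 0.037 ± 0.035 in HZ did not pass and was -0.19 on library totals, and that of 0.29 ± 0.035 in KO was 0.0035.

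*Slc7a11* (NCBI Gene 26570) brings in the cystine from which glutathione is made. It had 133 and 148 counts in unstimulated WT, 306 and 328 in HZ, with 237 and 125 in KO, the fewest of the 10 genes. It read 4.01 and 4.23 CPM in unstimulated WT against 15.7 and 17.3 with antigen, and 6.32 and 3.52 against 16.8 and 17.2 CPM in KO. In HZ it already read 8.81 and 9.95 CPM without antigen and reached 15.4 and 12.6 with it. The response was 4.00-fold in WT, 3.44-fold in KO and 1.499-fold in HZ. In HZ the log2 fold change of 0.58 was 0.35 on library totals and lost its call by limma, at 0.19 to 0.32. The stimulated libraries of the labels lay close together and the unstimulated HZ libraries lay above the others.

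**Figure D2:**
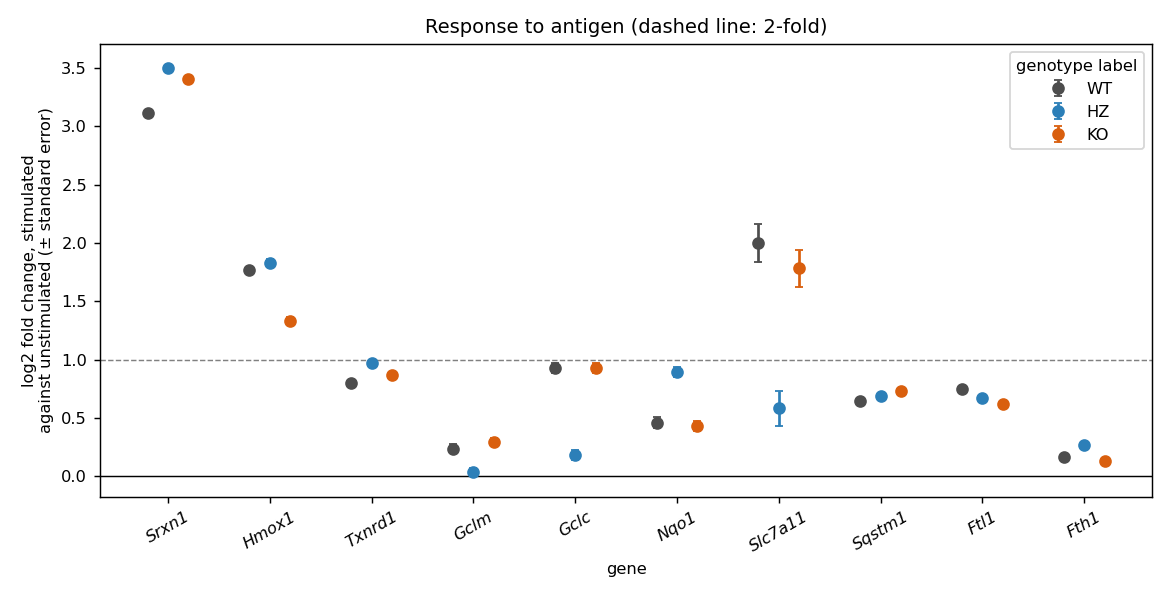
Log2 fold change, stimulated against unstimulated, of each gene in WT, HZ and KO BMMCs, with bars for 1 standard error and a dashed line at 2-fold, on TMM scaling. *Gclc* and *Slc7a11* show 0.18 and 0.58 in HZ against 0.93 and 2.00 in WT, and on library totals *Gclm* in WT and HZ, *Fth1* in WT and KO and *Gclc* in HZ would lie below 0.

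*Nqo1* (NCBI Gene 18104), which encodes a quinone reductase often used to read NRF2 activity, read 103 and 101 CPM in unstimulated WT, 96.6 and 95.7 in HZ, with 104 and 99.3 in KO. With antigen it read 144 and 137 CPM in WT, 177 and 180.4 in HZ, with 133 and 141 in KO. The unstimulated libraries of all labels lay between 95.7 and 104 CPM, and the stimulated HZ libraries lay above all others. It rose by 1.38-fold in WT, 1.86-fold in HZ and 1.35-fold in KO.

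*Sqstm1* (NCBI Gene 18412) encodes p62, an autophagy receptor that also binds KEAP1. It read 1534 to 1639 CPM over the 6 unstimulated libraries and 2489 to 2708 CPM over the 6 stimulated ones. Its response was 1.57-fold in WT, 1.61-fold in HZ and 1.66-fold in KO. Fold changes were 0.65 ± 0.022, 0.69 ± 0.022 and 0.74 ± 0.022 on the log2 scale. On library totals they were 0.34 in WT, 0.46 in HZ and 0.45 in KO.

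The ferritin chains parted from each other. *Ftl1* (NCBI Gene 14325) read 7609 and 7338 CPM in unstimulated WT, 7846 and 8297 in HZ, with 8935 and 9092 in KO. It read 12390.1 and 12716 CPM in stimulated WT, 12577 and 13126 in HZ, with 13956 and 13682 in KO. That is a rise of 1.68-fold in WT, 1.59-fold in HZ and 1.53-fold in KO.

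*Fth1* (NCBI Gene 14319), the chain that carries the ferroxidase centre, read 2296 and 2206 CPM in unstimulated WT, 2213 and 2277 in HZ, with 2672 and 2812 in KO. With antigen it read 2492 and 2569 CPM in WT, 2689 and 2735 in HZ, with 2992 and 3023 in KO. Its log2 fold change was 0.17 ± 0.023 in WT, 0.27 ± 0.023 in HZ and 0.13 ± 0.023 in KO, but on library totals it was -0.14 in WT, 0.041 in HZ and -0.16 in KO. *Ftl1* and *Fth1* have near-identical copies in the mouse genome, and how reads shared with them were counted is not given in the sources used here, so these counts are uncertain.

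Count ratios within a library put aside the choice of scaling. Reads of *Fth1* per read of *Ftl1* went from 0.301 ± 0.00074 (SD, n = 2) to 0.202 ± 0.00064 with antigen in WT, from 0.278 ± 0.0054 to 0.211 ± 0.0038 in HZ and from 0.304 ± 0.0072 to 0.218 ± 0.0046 in KO. Reads of *Gclc* per read of *Gclm* went from 0.738 ± 0.017 to 1.19 ± 0.0093 in WT, from 0.611 ± 0.014 to 0.676 ± 0.031 in HZ and from 0.498 ± 0.00059 to 0.775 ± 0.027 in KO. In every label the stimulated libraries lay below the unstimulated ones for the first ratio and above them for the second. Stimulated WT libraries were the only ones with more *Gclc* than *Gclm* reads. Reads are not scaled by gene length, and by FPKM the ratio there was 0.700 and 0.708, so *Gclc* stayed below *Gclm*. Both ratios show unequal change of a pair and do not say which gene moved.

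**Figure D3:**
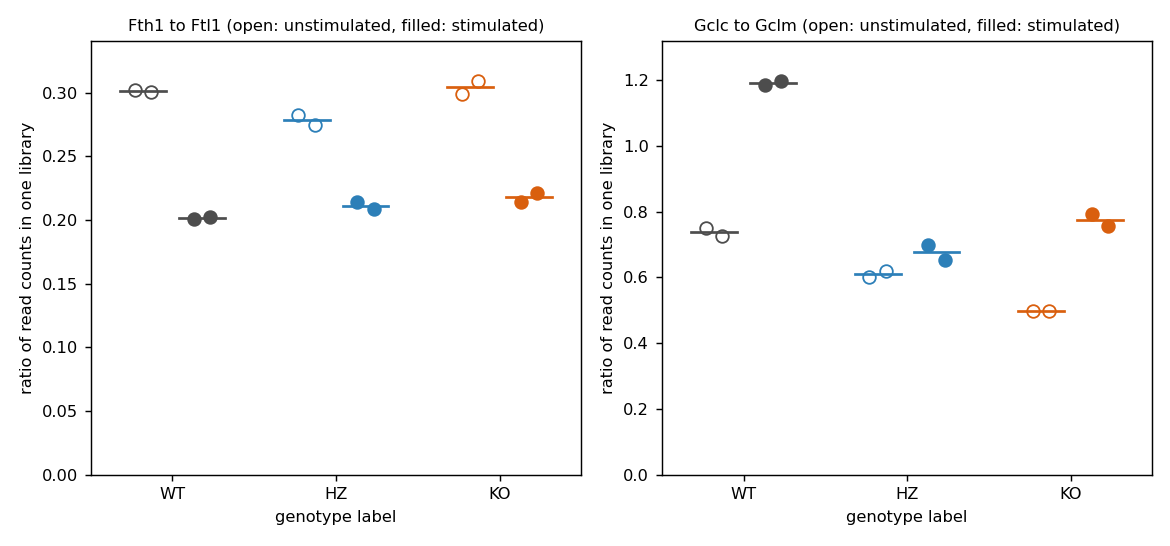
Reads of *Fth1* per read of *Ftl1* (left) and of *Gclc* per read of *Gclm* (right) in each of the 12 libraries, by genotype label, with open circles for unstimulated, filled circles for stimulated libraries and lines for the mean of 2 (linear axes from 0). The ferritin ratio is 0.274 to 0.309 without and 0.201 to 0.221 with antigen, and the ligase ratio passes 1 only in stimulated WT, at 1.18 and 1.20. Reads are not scaled by gene length, and by FPKM the ligase ratio is 0.700 and 0.708 in stimulated WT.

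The next question was whether the genes differ between genotype labels before antigen. In unstimulated KO against WT, 3 members were higher and 4 lower, against 22.9% and 21.7% of all genes tested, and none of them passed 1.5-fold, against 12.8%. In unstimulated HZ against WT, 4 were higher and 3 lower, against 25.4% and 26.0%, and 2, *Hmox1* and *Slc7a11*, passed 1.5-fold, against 16.9%. *Hmox1* was lower by -0.85 ± 0.032 (log2) in HZ and by -0.36 ± 0.031 in KO, with adjusted p-values of 6.53e-27 and 1.94e-13 by edgeR's quasi-likelihood test. *Srxn1* was lower by -0.49 in HZ and -0.17 in KO, and *Txnrd1* by -0.42 and -0.13. All 3 genes thus stood highest in WT, next in KO and lowest in HZ, with no overlap between the libraries of any pair of labels. The share of all genes without such overlap was not counted, so nothing is read from it. *Nqo1* and *Sqstm1* did not overlap between unstimulated HZ and WT either, and neither passed.

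*Gclm* went the other way. It was higher than WT by 0.44 ± 0.035 in unstimulated HZ and by 0.20 ± 0.035 in unstimulated KO, with adjusted p-values of 8.28e-15 and 8.28e-06 by edgeR. Its partner *Gclc* was lower by -0.37 ± 0.041 in KO (adjusted p = 1.50e-10, edgeR) and higher by 0.16 ± 0.040 in HZ (adjusted p = 0.000645, edgeR). *Slc7a11* was higher by 1.18 ± 0.17 in HZ, a 2.27-fold difference (adjusted p = 6.58e-08, edgeR). In KO *Slc7a11* differed from WT by 0.26 ± 0.18 and did not pass, and without replicate 2 of unstimulated KO, which read 3.52 CPM, the difference was 0.62 and passed. Without replicate 1 of unstimulated KO it was -0.23.

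Ferritin was higher in the libraries labelled KO. Before antigen *Ftl1* stood above WT by 0.27 ± 0.020 and *Fth1* by 0.28 ± 0.023, which is 1.21-fold and 1.22-fold, and the adjusted p-values were 8.23e-16 and 1.65e-14 by edgeR. In HZ *Ftl1* was higher by 0.11 ± 0.020 (adjusted p = 7.90e-06, edgeR), a value that was 0.064 without replicate 2 of unstimulated HZ and 0.061 by limma, where it lost its call. In HZ *Fth1* differed by -0.0037 ± 0.023. *Nqo1* and *Sqstm1* did not pass in either label. Without replicate 2 of unstimulated WT or replicate 2 of unstimulated HZ, *Sqstm1* passed at -0.065 and -0.073 in HZ. Scaling by library totals moved the count of members lower in unstimulated HZ to 6, through *Nqo1* at -0.14, *Sqstm1* at -0.098 and *Fth1* at -0.053.

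Unstimulated KO stood above unstimulated HZ in 6 members and below it in 3, against 23.4% and 21.8% of all genes. *Hmox1* was higher by 0.50, *Srxn1* by 0.32, *Fth1* by 0.29 and *Txnrd1* by 0.29, whereas *Gclc* was lower by -0.53, *Gclm* by -0.24 and *Slc7a11* by -0.92. The value for *Slc7a11* was -1.41 without replicate 1 and -0.57 without replicate 2 of unstimulated KO. *Sqstm1* was higher by 0.063 and lost its call without replicate 1 of unstimulated HZ or replicate 2 of unstimulated KO, at 0.045 and 0.0496, and with DESeq2 size factors, at 0.051. *Nqo1* passed on library totals, at 0.11. The unstimulated libraries labelled HZ thus did not lie between WT and KO for *Srxn1*, *Hmox1*, *Txnrd1*, *Gclm*, *Gclc* or *Slc7a11*.

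**Figure D4:**
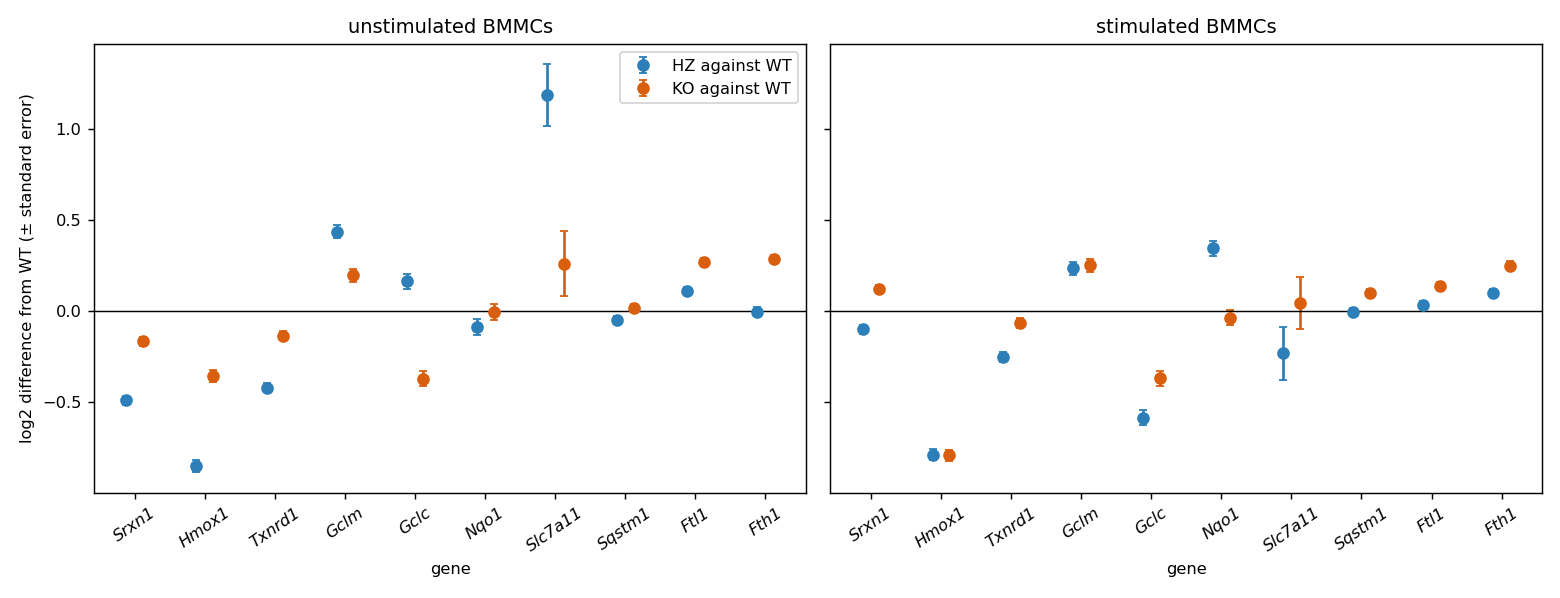
Log2 difference from WT of each gene in HZ and KO BMMCs, without antigen (left) and after 1 h of antigen (right), with bars for 1 standard error. *Hmox1* lies at -0.85 and -0.36 on the left and at -0.79 and -0.79 on the right, and *Gclm* lies above 0 in all 4 comparisons, by 0.20 to 0.44.

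After antigen, stimulated KO was higher than stimulated WT in 5 members and lower in 3, against 21.2% and 19.2% of all genes tested, and 1 passed 1.5-fold, against 12.8%. Stimulated HZ was higher than WT in 3 and lower in 4, against 18.4% and 16.5%, and 1 passed 1.5-fold, against 8.01%. That gene was *Hmox1* in both cases, lower than WT by -0.79 ± 0.030 in KO and by -0.79 ± 0.030 in HZ, or 1.73-fold, with adjusted p-values of 6.35e-27 and 1.28e-26 by edgeR. *Hmox1* is also abundant in macrophages, and the summed macrophage and monocyte markers were 169 CPM in both unstimulated WT libraries and 137 to 141 CPM in stimulated WT, against 101 to 112 CPM in the HZ and KO libraries. That sum came mostly from *Cx3cr1* and *Cd68*, while 6 of the 12 markers were below 1 CPM throughout. *Cx3cr1* averaged 120 CPM in unstimulated and 76.7 CPM in stimulated WT, against 34.2 to 62.3 CPM in the HZ and KO groups. *Cd68* was not highest in WT. It averaged 39.1 CPM without and 48.4 with antigen in WT, 20.5 and 55.5 in HZ, with 42.3 and 52.1 in KO. *Lyz2* was lowest in WT, at 4.26 and 4.61 CPM against 7.12 to 10.9 CPM in the HZ and KO groups. The part of these transcripts in the *Hmox1* difference was not tested.

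*Gclc* was lower than WT by -0.37 ± 0.039 in stimulated KO and by -0.58 ± 0.039 in stimulated HZ (adjusted p = 4.12e-11 and 3.71e-17, edgeR). *Gclm* was higher than WT by 0.25 ± 0.035 and 0.23 ± 0.035 (adjusted p = 7.70e-08 and 4.59e-07, edgeR). *Nqo1* was higher in stimulated HZ by 0.34 ± 0.042, with an adjusted p of 4.23e-09 by edgeR, and differed by -0.036 ± 0.043 in KO. *Fth1* was higher by 0.25 in KO and 0.10 in HZ, and *Ftl1* by 0.14 in KO, a call lost by limma without a filter on low values. *Ftl1* in HZ differed by 0.034 and did not pass, and without replicate 1 of stimulated HZ it passed at 0.066.

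*Srxn1* was higher in stimulated KO than in stimulated WT by 0.12 ± 0.022, which reversed its order before antigen, and lower in HZ by -0.10 ± 0.022 (adjusted p = 1.55e-05 and 0.000323, edgeR). *Txnrd1* was lower in HZ by -0.25 ± 0.026, with an adjusted p of 3.84e-11 by edgeR. In KO *Txnrd1* was lower by -0.066 ± 0.026 (adjusted p = 0.0374, edgeR), a call that was lost when any 1 of the 4 libraries was left out, with differences of -0.079 to -0.052, or when no filter on low counts was used, at -0.065. *Sqstm1* was higher in KO by 0.10 and differed by -0.0069 in HZ. *Slc7a11* did not pass in either label, at 0.045 ± 0.14 in KO and -0.23 ± 0.14 in HZ. These values rested on single libraries, since the HZ difference was -0.38 without replicate 1 and -0.092 without replicate 2 of stimulated HZ. The KO difference was -0.022 without replicate 1 and 0.12 without replicate 2 of stimulated WT.

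Stimulated KO was higher than stimulated HZ in 6 members and lower in 1, against 12.9% and 12% of all genes. The lower gene was *Nqo1*, by -0.38 ± 0.043. *Srxn1* was higher by 0.22, *Gclc* by 0.21, *Txnrd1* by 0.19, *Fth1* by 0.15, *Sqstm1* by 0.11 and *Ftl1* by 0.10. *Ftl1* lost its call by limma, at 0.075, and *Fth1* did so by limma without a filter, at 0.12, which left 4 members higher. *Hmox1* and *Gclm* differed by -0.0030 ± 0.030 and 0.017 ± 0.035, so the labels that had been apart before antigen were within the spread of replicates after it.

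Interaction terms then compared the responses themselves. The response in KO minus that in WT passed for 1 member above and 2 below 0, against 5.44% and 3.83% of all genes, and the response in HZ minus that in WT for 4 above and 4 below, against 19.9% and 18.6%. In KO the term was 0.29 ± 0.033 for *Srxn1* (adjusted p = 3.95e-09, edgeR) and -0.44 ± 0.043 for *Hmox1* (adjusted p = 7.82e-11, edgeR). *Gclc*, lower in KO in both states, had a response that did not differ from that in WT beyond its error, with a term of 0.00021 ± 0.055. In HZ the largest terms were -1.41 ± 0.22 for *Slc7a11*, -0.75 ± 0.056 for *Gclc*, 0.43 ± 0.061 for *Nqo1* and 0.39 ± 0.033 for *Srxn1*, with adjusted p-values of 9.03e-07, 1.70e-15, 9.69e-08 and 9.47e-14 by edgeR.

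The response of *Hmox1* in HZ was close to that in WT, with a term of 0.064 ± 0.044 that did not pass but reached 0.14 and passed on library totals. The difference of *Hmox1* between HZ and WT was thus already present before antigen, at -0.85, and was -0.79 after it. In KO it went from -0.36 to -0.79. *Ftl1* responded less in KO, by -0.13 ± 0.029 (adjusted p = 0.00114, edgeR), and the term of -0.11 by limma did not pass. The terms of *Sqstm1*, which did not pass on TMM scaling, were 0.10 in KO and 0.12 in HZ on library totals and passed there. The terms of *Ftl1* in HZ, -0.077 ± 0.029, and of *Fth1* in HZ, 0.10 ± 0.033, each lost their call under other settings. On library totals that of *Ftl1* was -0.00080 and that of *Fth1* 0.18, and by DESeq2 that of *Fth1* was 0.082 and did not pass. Single libraries mattered as well. *Ftl1* read -0.12 without replicate 1 of unstimulated HZ, and its call was lost at -0.061 and -0.056 without replicate 2 of unstimulated or of stimulated WT and at -0.045 and -0.045 without replicate 2 of unstimulated HZ or replicate 1 of stimulated HZ. *Fth1* lost its call at 0.075 to 0.084 without replicate 1 of unstimulated WT, of stimulated WT or of unstimulated HZ.

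The other genes of the pathway were followed in 4 lists. Of 11 regulators of NRF2, 8 were higher and 2 lower in stimulated WT, with a median log2 fold change of 0.27, against 22.4% and 22.9% of all genes tested and their median of -0.013. On library totals 3 were higher and 3 lower, against 6.90% and 60.6% of all genes. In HZ 6 were higher and 4 lower, against 32.9% and 31.6% of all genes, and in KO 5 and 2, against 20.4% and 20.5%. Medians of the list were 0.17 in HZ and 0.049 in KO. On library totals the counts were 4 and 5 in HZ, against 20.04% and 48.3%, and 4 and 7 in KO, against 7.03% and 59.8%. *Nfe2l2*, which is also on the list of ternary complex factor targets used in the study, read 95.7 and 95.8 CPM without antigen and 178 and 174.0 CPM with it in WT. The log2 fold change of *Nfe2l2* was 0.88 in WT, 0.70 in HZ and 1.01 in KO. *Maff*, a small MAF partner, went from 5.83 and 7.15 CPM to 36.4 and 39.8 in WT, with log2 fold changes of 2.55 in WT, 3.96 in HZ and 2.89 in KO. *Bach1*, which encodes a haem-sensing repressor of *Hmox1*, rose by 0.53 in WT and 0.58 in KO and stood at -0.042 in HZ, where it did not pass and was -0.27 on library totals.

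*Nfe2*, a relative of NRF2 best known from the erythroid and platelet lineages, fell, at -1.63 in WT, -2.28 in HZ and -2.16 in KO on the log2 scale. *Keap1*, which encodes the adaptor that marks NRF2 for degradation, fell as well, at -0.15 in WT, -0.29 in HZ and -0.34 in KO. In stimulated KO against stimulated WT, 6 regulators were higher and 4 lower, against 21.2% and 19.2% of all genes. *Maff* was higher by 0.67 and *Bach2*, a lymphoid relative of BACH1, by 0.61, while *Nfe2l1*, a relative of NRF2 that controls proteasome genes, was lower by -0.31 and *Mafk* by -0.23. Before antigen *Bach2* read 19.3 and 14.8 CPM in KO against 8.78 and 10.1 in WT, and *Maff* 8.67 and 7.55 against 5.83 and 7.15. *Nfe2l1* then read 147 and 154 CPM against 156 and 155, and *Mafk* 133 and 134 against 136 and 127.

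Of 23 other NRF2-linked enzymes tested, 14 were higher and 0 lower in stimulated WT by edgeR, against the same 22.4% and 22.9%. On library totals 3 of them were higher and 8 lower in WT, against 6.90% and 60.6% of all genes. *Osgin1*, an oxidative stress-induced growth inhibitor, rose by 1.28 in WT, 1.64 in HZ and 1.41 in KO, and *Gstm1*, a glutathione transferase, by 0.67, 0.16 and 0.37, of which the HZ and KO values were -0.068 and 0.078 on library totals and did not pass there. In HZ 11 of the 23 were higher and 6 lower, and 6 and 10 on library totals, and in KO 11 and 1, and 2 and 11 on library totals. Over all genes these shares were 32.9% and 31.6% in HZ and 20.4% and 20.5% in KO, or 20.04% and 48.3% and then 7.03% and 59.8% on library totals. In stimulated KO against WT, 6 were higher and 7 lower, against 21.2% and 19.2% of all genes. *Idh1* was higher by 0.57 and *Blvrb* by 0.42, and *Cbr3* and *Pir* were lower by -0.98 and -0.98. These genes were apart before antigen too. *Idh1* then read 27.3 and 32.6 CPM in KO against 20.3 and 17.5 in WT, and *Blvrb* 24.6 and 24.3 against 19.0 and 16.2. *Cbr3* read 2.69 and 2.48 CPM against 4.41 and 5.17, and *Pir* 2.21 and 2.71 against 3.74 and 4.57. *Cbr3* had 69 to 181 counts per library and *Pir* 46 to 160.

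Of 15 other glutathione, thioredoxin and peroxide genes, 9 were higher and 1 lower in stimulated WT, against 22.4% and 22.9% of all genes. On library totals 3 of the 15 were higher and 6 lower, against 6.90% and 60.6%. In HZ 10 were higher and 3 lower, against 32.9% and 31.6%, and in KO 5 and 2, against 20.4% and 20.5%. On library totals these were 7 and 5 in HZ, against 20.04% and 48.3%, and 1 and 10 in KO, against 7.03% and 59.8%. *Gss*, which encodes glutathione synthetase, rose by 0.81 in WT, 0.57 in HZ and 0.85 in KO, and *Slc3a2*, the heavy chain that partners with the *Slc7a11* product, by 0.58, 0.35 and 0.33. On library totals *Slc3a2* stood at 0.27, 0.11 and 0.039, of which the KO value did not pass. *Txnip*, whose product binds and inhibits thioredoxin, fell, at -1.86, -1.52 and -1.85. *Txnip* was also the list's largest difference between stimulated KO and WT, at 1.28 ± 0.030, with 360.1 and 359 CPM against 151 and 146. It was apart before antigen too, at 1288 and 1298 CPM in KO against 536 and 542 in WT. In stimulated KO against WT, 11 of the 15 were higher and 1 lower, against 21.2% and 19.2% of all genes. The second largest was *Prdx6* at 0.61, and the lower gene was *Gpx1* at -0.18. In unstimulated KO against WT, 12 were already higher and 0 lower, against 22.9% and 21.7% of all genes.

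Of the iron and haem genes, 13 were tested, and stimulated WT was higher in 5 and lower in 2, against 22.4% and 22.9% of all genes. On library totals 3 of the 13 were higher and 9 lower, against 6.90% and 60.6%. In HZ 8 were higher and 3 lower, against 32.9% and 31.6%, and in KO 3 and 1, against 20.4% and 20.5%. On library totals these were 3 and 6 in HZ, against 20.04% and 48.3%, and 2 and 6 in KO, against 7.03% and 59.8%. *Tfrc*, the transferrin receptor, rose by 0.73 in WT, 1.72 in HZ and 0.45 in KO, and *Ncoa4*, the receptor that sends ferritin to autophagy, by 0.44 in WT and 0.37 in KO, with 0.062 in HZ, where it did not pass and was -0.17 on library totals. *Fbxl5*, which encodes the iron-sensing subunit of the ligase that degrades IRP2, fell in WT, at -0.51, and so did *Ireb2*, which encodes IRP2, at -0.42. *Slc40a1*, the iron exporter ferroportin, had at most 0.0337 CPM in any library and was not tested. In stimulated KO against WT, 2 were higher and 2 lower, against 21.2% and 19.2% of all genes, with *Fbxl5* at 0.32 and *Blvra* at 0.21 above WT and *Ireb2* at -0.17 and *Pcbp1* at -0.12 below it.

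**Figure D5:**
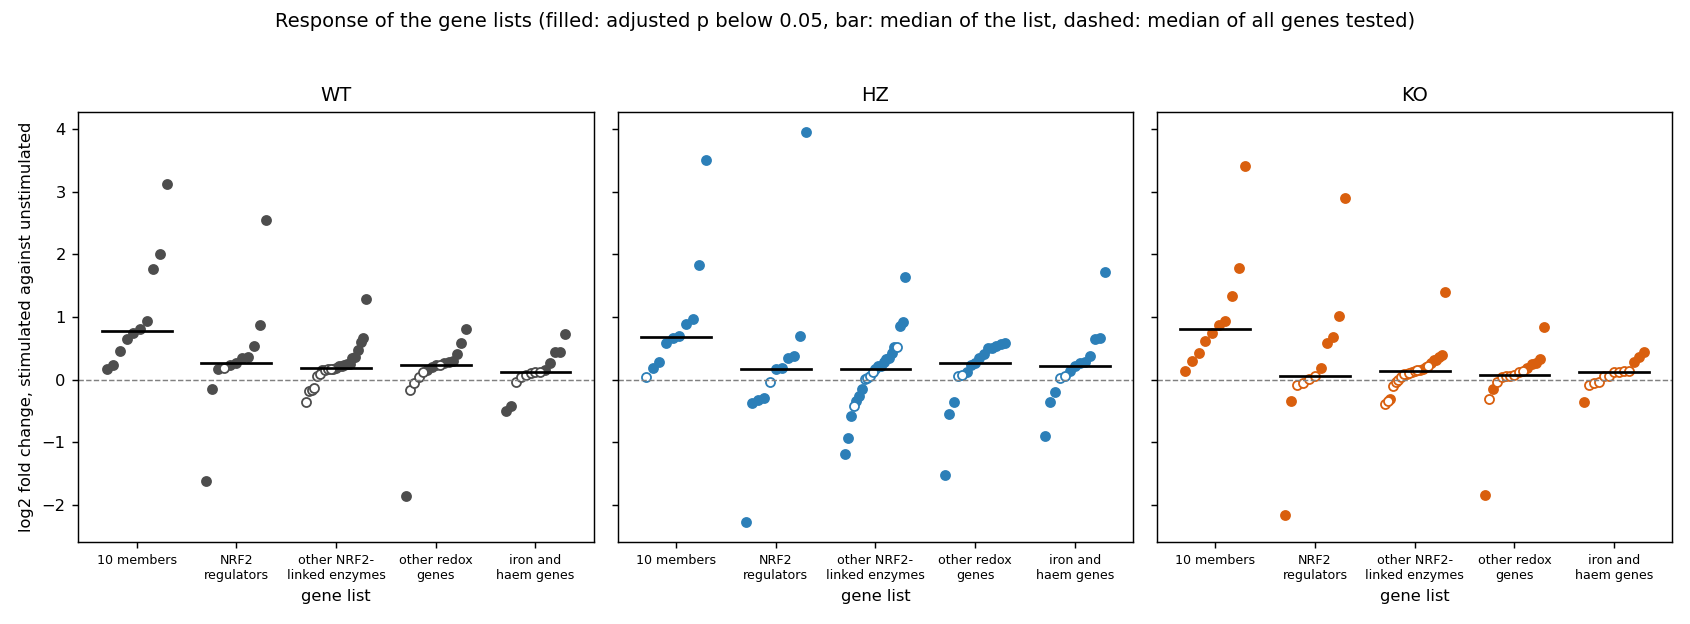
Log2 fold change, stimulated against unstimulated, of the 10 members and of the 4 other lists in WT, HZ and KO BMMCs, on TMM scaling, with filled circles for an adjusted p below 0.05, bars for list medians and a dashed line at the median of all genes tested. The members have medians of 0.78, 0.68 and 0.80, and on library totals the median of all genes would move to -0.32, -0.24 and -0.30. That turns the WT counts of the enzymes from 14 higher and 0 lower (all genes 22.4% and 22.9%) to 3 and 8 (all genes 6.90% and 60.6%).

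Genes with the most similar profile were found by Pearson's r of log2 CPM over the 12 libraries, which share their groups and depth, over genes that averaged 100 counts or more. For *Srxn1* these were *Hbegf*, *Il6* and *Cish*, at r of 0.998 to 0.999. For *Sqstm1* they were *Nr4a2*, *Mcl1* and *Gadd45b*, at 0.997 to 0.998, and for *Hmox1* *Slc20a1*, *Siah2* and *Actg1*, at 0.994 to 0.996. *Ftl1* was nearest to *Ubb*, *Sub1* and *Plek*, at 0.989 to 0.992, and *Fth1* to *Rnh1*, *Mrps10* and *Akr1b3*, at 0.973 to 0.979. *Gclc* was nearest to *Kdm3a*, *Kctd9* and *Tmtc2*, at 0.976 to 0.985, and *Gclm* to *Vcan*, *Rps15a* and *Inafm2*, at 0.969 to 0.978. *Nqo1* was nearest to *Etv6*, *Nap1l1* and *Npm1*, at 0.970 to 0.984. No gene appeared among the nearest of more than 1 of these members.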

How the data were processed

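RNA of BMMCs was measured in 12 libraries, in 6 groups of 2 given by genotype label and treatment. The authors deposited raw read counts per gene and, for the same genes, FPKM values scaled by gene length and library total. The submitters' processing notes name fastp, HISAT2 and HTSeq and build GRCm39, without versions or settings. The members and lists were chosen with earlier results of these data known.

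Counts were tested in R 4.3.3 with edgeR 4.0.16: filterByExpr, TMM, 1 quasi-likelihood fit with 6 group means, two-sided p-values adjusted by Benjamini-Hochberg over 12208 genes, and an adjusted p below 0.05 to pass. Fold changes used a prior count of 0.125. Genotype comparisons with WT share the same WT libraries. CPM are TMM-scaled. Named genes were the 10 members and, from 4 lists, the 2 largest changes in each direction in stimulated against unstimulated WT and in stimulated KO against WT, besides genes named for a role and the 3 nearest genes by profile, which for *Txnrd1* and *Slc7a11* are not reported here. The scripts were tested on simulated data.

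Alternatives were DESeq2 1.42.0 (the study names DESeq), its size factors, library totals, no filter, at least 10 counts in every library, only the groups compared, 2 replicate blocks, a prior count of 2, an adjusted p below 0.01, limma 3.58.1 on log2(FPKM + 1) or log2(FPKM + 0.1), and leaving out each library. With 2 libraries per group, replicate spread limits the precision, at a standard error of 0.020 to 0.23 on the log2 scale.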

Additional observations from a re-analysis of the deposited data

Results flagged for a closer look

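Responses that differed from WT by the interaction term of edgeR's quasi-likelihood model drew attention in 11 cases. For KO these were *Srxn1* at 0.29 (adjusted p = 3.95e-09), *Hmox1* at -0.44 (adjusted p = 7.82e-11) and *Ftl1* at -0.13 (adjusted p = 0.00114). For HZ they were *Slc7a11* at -1.41, *Gclc* at -0.75, *Nqo1* at 0.43 and *Srxn1* at 0.39, followed by *Gclm* at -0.20, *Txnrd1* at 0.17, *Fth1* at 0.10 and *Ftl1* at -0.077, with adjusted p-values from 1.70e-15 for *Gclc* to 0.0278 for *Ftl1*. On library totals the HZ term of *Ftl1* was -0.00080. The HZ term of *Fth1* did not pass by DESeq2, at 0.082, and the KO term of *Ftl1* did not by limma, at -0.11. Against these 8 members, 19.9% of all genes tested were higher and 18.6% lower by the HZ term. Groups of 2 libraries allow no check for a deviating library.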

How the results depend on the processing

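Each setting that kept all libraries gave 110 values for the members, except the block within genotype. At least 10 counts in every library and a fit of only the groups compared moved no member across the threshold. A prior count of 2 alters only the fold changes and not the p-values, so it could not have done so. Library totals, which the FPKM values carry too, reversed 5 values. With antigen these were *Gclm* in WT (-0.070, or -0.069 by limma), *Gclm* in HZ (-0.19), *Fth1* in WT (-0.14), *Fth1* in KO (-0.16, or -0.15 by limma) and *Gclc* in HZ (-0.049, or -0.048 by limma). Of these, *Gclm* in WT did not pass on library totals by edgeR, and *Gclc* in HZ passed neither there nor by limma. Members lower after antigen became 1 in WT on library totals and 2 by limma, and 1 in HZ and 1 in KO under both. Members lower in unstimulated HZ became 6 on library totals and 5 by limma. For the response in KO minus WT, members higher became 2 on library totals and in the block within genotype, and members lower became 1 by limma, without *Ftl1*. Limma also lost *Slc7a11* with antigen in HZ (0.19 to 0.32) and *Ftl1* in unstimulated HZ against WT (0.061) and in stimulated KO against HZ (0.075).

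Whether the replicate numbers pair the samples could not be settled. Over 9858 genes, the deviations of libraries with the same number within a genotype correlated at -0.028 in WT, 0.067 in HZ and -0.012 in KO. Between groups of different genotypes the values were -0.051 to 0.043. Low correlations do not show whether libraries with the same number shared an animal or culture. A replicate block changed no call of the members, which stayed at 10, 9 and 10 higher after antigen, and the block within genotype changed that of *Sqstm1* in the KO response, to 0.086. With single libraries left out, the members passing in stimulated KO against WT were 7 each time, those in unstimulated KO against HZ were 8 to 9, and those in the HZ response 7 to 8.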
